A study of Cicer arietinum with 8 samples.

Results

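The genes described here are the 61 named chickpea loci whose transcript level in roots was at least 1.5-fold lower under salinity stress than in control plants of both genotypes. They were chosen by 3 conditions on the deposited values. A gene identifier had to be given for the locus, the level in each of the 2 control groups had to be at least 5 FPKM (a transcript level corrected for transcript length and sequencing depth), and the control had to be at least 1.5 times the stressed group in each genotype. Of 30692 loci in the table, 27876 carried a gene identifier and 13633 of these reached the FPKM minimum in both controls, so the 61 genes made up 0.447% of the loci that could qualify. Each of the 61 loci carried a single identifier. Since the stress to control ratios chose these genes, the ratios below are descriptions and were not tested.

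Cicer arietinum (chickpea) is a legume crop in which salt in the soil limits growth, and the root is the organ that meets it first. The salinity tolerant genotype JG62 (ST) and the salinity sensitive genotype ICCV2 (SS) were grown in a growth chamber, and roots were sequenced from 4 groups with 2 libraries each. The stressed groups, ST-S in JG62 and SS-S in ICCV2, received 80 mM NaCl on alternate days over 6 days from an age of 12 days, and the control groups, ST-C in JG62 and SS-C in ICCV2, received water without added salt over the same days. Harvest was at 18 days per the labels, although the design text of the series speaks of seedlings of 17 days. Tolerance and sensitivity were each represented by 1 genotype, so whatever else separates JG62 from ICCV2 cannot be told apart from tolerance, and a whole root is a mixture of cell types.

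Salt around a root lowers the water potential of the soil solution and brings sodium and chloride into the tissue, and roots are known to answer with wide changes of transcription, both upward and downward. Among the functions named for the genes below, transporters of the MATE (multidrug and toxic compound extrusion) family move organic compounds out of cells, and the Arabidopsis member FRD3 exports citrate that keeps iron soluble on its way through the xylem. Proteins with a basic helix-loop-helix (bHLH) domain are transcription factors, several of which control iron uptake in Arabidopsis roots, and lipoxygenases (Lox) add oxygen to unsaturated fatty acids, a step that opens the pathway to jasmonates.

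Every group is given in the table as 1 value per locus, made by the authors from both libraries. No spread between libraries could therefore be computed, no ratio below has a replicate check, and the sequencing depth behind the values is unknown. The gene identifiers carry no names, so root marker genes were not checked, and the tissue tag of the labels reads "salinity" where the source name reads root. The median stress to control ratio over the 13633 loci was 0.05 in ST and -0.03 in SS on the log2 scale.

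At least 1.5-fold lower levels under stress were given for 304 of the 13633 loci (2.23%) in ST and for 320 (2.35%) in SS. The 61 genes lower in both were 20.1% of the ST list and 19.1% of the SS list. Among the other loci on these lists, 10 were at least 1.5-fold lower under stress in ST and at least 1.5-fold higher in SS, and 39 were at least 1.5-fold lower in SS and at least 1.5-fold higher in ST. In a whole root, fewer cells of a type and less RNA per cell cannot be told apart. For comparison, 48 loci (0.352%) were at least 1.5-fold higher under stress in both genotypes, which was 8.82% of the 544 loci higher in ST (3.99%) and 24.5% of the 196 loci higher in SS (1.44%). At 2-fold, 98 loci (0.719%) were higher in ST, 34 (0.249%) in SS and 6 (0.0440%) in both.

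**Figure D1:**
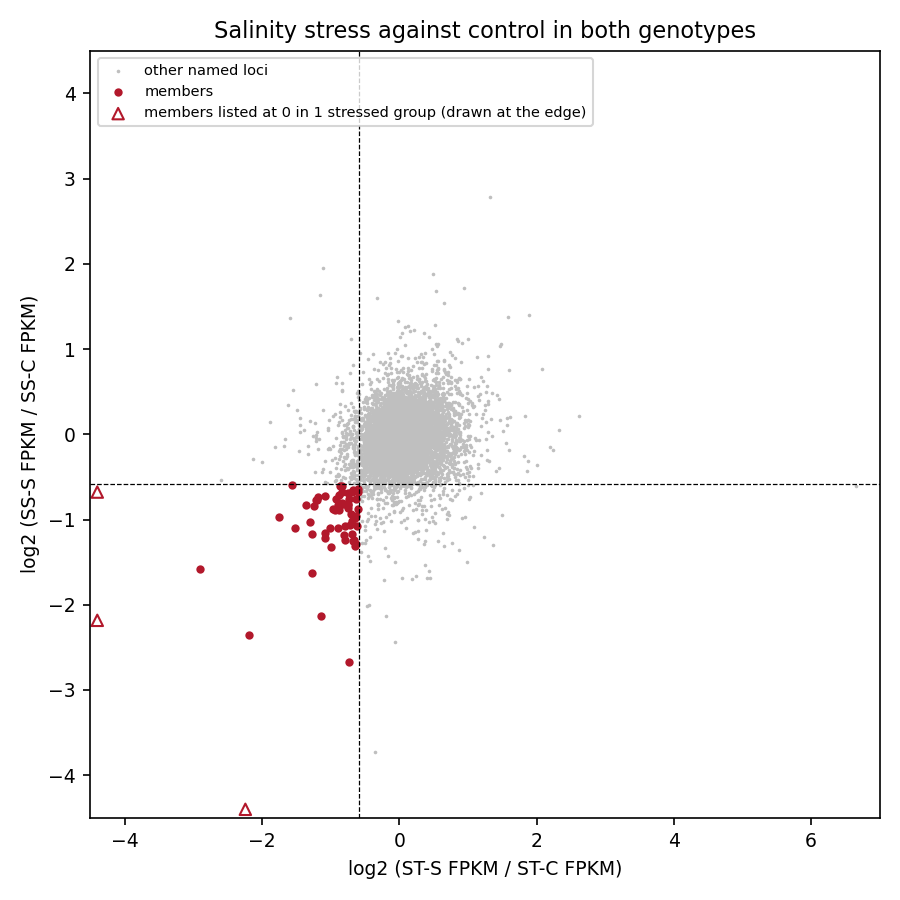
Log2 ratio of stressed to control FPKM in ST (horizontal) and SS (vertical) for the named loci with at least 5 FPKM in both controls; red points are the 61 genes lower in both genotypes, triangles are those listed at 0 in 1 stressed group, dashed lines mark the 1.5-fold threshold, and 4 other loci listed at 0 under stress are not drawn. The red points fill the lower left corner by construction, and most lie close to the threshold, with medians of -0.83 in ST and -0.89 in SS.

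Most of the 61 genes were lower by a moderate amount. Under stress they stood at a median of 56.1% of the control level in ST, with quartiles of 43.9% and 61.1%, and at a median of 53.9% in SS, with quartiles of 44.3% and 58.9%. The lowest value above 0 was 13.4% in ST and 15.7% in SS, and the highest values, 65.8% in ST and 66.1% in SS, lay at the threshold. A level at least 2-fold lower was given for 21 of the genes in ST and 26 in SS, against backgrounds of 0.491% and 0.638% of the 13633 loci. Both genotypes reached 2-fold for 12 of them (background 0.0880%), ST alone for 9, SS alone for 14 and neither for 26. A level at least 4-fold lower, or listed at 0, was given for 5 genes in each genotype, and the share of the 13633 loci at that depth was not computed. All of these counts use the ratios that selected the genes, and nothing is read from their distance to the background.

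The 4 genes with a function named by the study were a MATE transporter, a pair of bHLH factors and a lipoxygenase. Ca_25099, annotated as FRD3 of the MATE family, had 1.39 FPKM in ST-S against 10.4 FPKM in ST-C, and 8.89 FPKM in SS-S against 26.5 FPKM in SS-C. This left 13.4% of the control level in ST, the lowest share above 0 among the 61 genes in that genotype, and 33.5% in SS. Ca_25099 was also lower in ST than in SS, with a log2 ratio of ST over SS of -2.68 under salt and -1.35 without it. The stressed SS roots thus had a level close to that of the unstressed ST roots.

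The bHLH genes stood at nearly equal shares of the control in both genotypes. Ca_07196 had 7.60 FPKM in ST-S against 14.8 FPKM in ST-C (51.4%), and 12.8 FPKM in SS-S against 23.4 FPKM in SS-C (54.6%). Ca_20616, a gene of low level, had 3.40 FPKM in ST-S against 5.97 FPKM in ST-C (57.0%), and 4.30 FPKM in SS-S against 7.56 FPKM in SS-C (56.9%). Both were lower in ST than in SS with and without salt, and the gap between the genotypes was nearly the same in both conditions. On the log2 scale it was -0.75 under stress and -0.66 in the controls for Ca_07196, and -0.34 under stress and -0.34 in the controls for Ca_20616.

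Ca_10731, annotated as a lipoxygenase, had 6.73 FPKM in ST-S against 11.6 FPKM in ST-C (57.9%), and 12.8 FPKM in SS-S against 30.1 FPKM in SS-C (42.5%). Its 2 groups of SS lay above both groups of ST. The gap between the genotypes was narrower under salt, at -0.93 on the log2 scale, than in the controls, at -1.37.

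**Figure D2:**
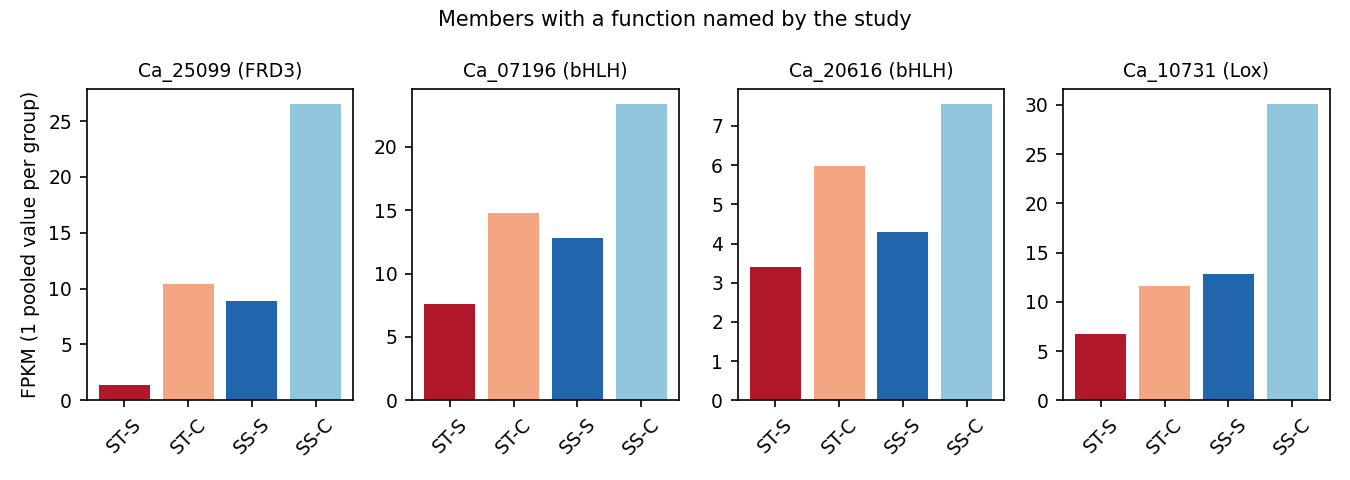
FPKM of the 4 genes with a function named by the study, as 1 bar per group (1 pooled value each, no error available). Each gene is lower in the stressed than in the control group of either genotype, and SS-C is the highest group for all 4.

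The 3 genes of the MATE and bHLH annotations were set beside the 1 other identifier that the study annotates in these families, a grouping made here and not by the study. This was Ca_02410 of the MATE family, which had 7.43 FPKM in ST-S against 3.95 FPKM in ST-C (188%), and 3.47 FPKM in SS-S against 7.34 FPKM in SS-C (47.3%). It was thus higher under stress in ST and lower in SS, unlike those 3, and its ST-C value lay under the minimum of 5 FPKM. Over all 17 identifiers the study names, found at 18 loci, 4 were among the 61 genes. Of the 18 loci, 15 reached 5 FPKM in both controls. Among these 15, 5 were at least 1.5-fold lower under stress in ST (background 2.23%) and 8 in SS (background 2.35%), while 5 were at least 1.5-fold higher in ST (background 3.99%) and 2 in SS (background 1.44%). The study picked these identifiers on the same samples, so their counts are not independent evidence of a direction.

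Among the identified loci outside the set, Ca_09442, annotated as WRKY33 and in Arabidopsis a transcription factor of defence, had 80.1 FPKM in ST-S against 62.6 FPKM in ST-C, and 21.4 FPKM in SS-S against 52.4 FPKM in SS-C. Only its SS value met the 1.5-fold condition. Ca_02137, annotated as a phospholipase A, showed the opposite order, with 15.3 FPKM in ST-S against 35.7 FPKM in ST-C, and 12.3 FPKM in SS-S against 11.2 FPKM in SS-C. These loci, given as examples without a rule of choice, lacked the shared direction that defines the 61 genes. Others outside the set were higher under stress in both genotypes. Among them were Ca_22105, at 245% of control in ST and 189% in SS, and Ca_09586, at 176% in ST and 186% in SS.

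The remaining genes of the set are known here by identifier alone, and no function is assigned to them. Ranked by the genotype in which each was less reduced, the first was Ca_07272, with 2.44 FPKM in ST-S against 11.5 FPKM in ST-C (21.1%), and listed at 0 in SS-S against 6.51 FPKM in SS-C. Ca_05908 followed, with 3.88 FPKM in ST-S against 17.7 FPKM in ST-C (22.0%), and 6.49 FPKM in SS-S against 33.2 FPKM in SS-C (19.6%). Of all 61 genes, Ca_05908 was the 1 at least 4-fold lower in both genotypes with a level above 0 in every group. Ca_24272 was listed at 0 in ST-S against 6.27 FPKM in ST-C, and had 2.90 FPKM in SS-S against 13.2 FPKM in SS-C (22.0%). Ca_25099, given above, came next in this order.

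Ca_00551 had 11.3 FPKM in ST-S against 27.1 FPKM in ST-C (41.6%), and 15.5 FPKM in SS-S against 47.7 FPKM in SS-C (32.5%). Ca_03416, with 116 FPKM in ST-S against 278 FPKM in ST-C (41.6%), and 60.0 FPKM in SS-S against 136 FPKM in SS-C (44.3%), had by far the highest level in this group of strongly reduced genes. Its control mean was above 100 FPKM, and no other gene of that level was at least 2-fold lower in both genotypes.

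The other 4 of the 10 most reduced genes had control levels between 5 and 16 FPKM. Ca_06739 had 2.74 FPKM in ST-S against 6.03 FPKM in ST-C (45.4%), and 1.80 FPKM in SS-S against 7.89 FPKM in SS-C (22.9%). Ca_07513 had 1.94 FPKM in ST-S against 5.60 FPKM in ST-C (34.7%), and 3.19 FPKM in SS-S against 6.81 FPKM in SS-C (46.8%). For both, every stressed value lay under every control value, but all 4 values were small. Ca_09902 had 4.48 FPKM in ST-S against 9.52 FPKM in ST-C (47.1%), and 3.48 FPKM in SS-S against 8.10 FPKM in SS-C (42.9%). Ca_27448 had 4.34 FPKM in ST-S against 9.21 FPKM in ST-C (47.1%), and 6.80 FPKM in SS-S against 15.1 FPKM in SS-C (44.9%). These last genes were reduced to nearly the same share in both genotypes. The list of genes at least 2-fold lower in both was completed by Ca_10057 and Ca_05360, singled out after their values were seen. Ca_05360 had 15.8 FPKM in ST-S against 31.9 FPKM in ST-C, and 14.5 FPKM in SS-S against 31.1 FPKM in SS-C, so that neither condition separated the genotypes.

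An exact 0 in such a table can be a failed estimate as well as an absent transcript, and genes listed at 0 are given no fold change. They are nevertheless kept in the counts of genes beyond a fold threshold and in the counts of group order. With them left out, 10 genes instead of 12 were at least 2-fold lower in both genotypes. Besides Ca_07272 and Ca_24272 this concerned Ca_24651, which was listed at 0 in ST-S against 5.91 FPKM in ST-C, and had 3.63 FPKM in SS-S against 5.81 FPKM in SS-C (62.5%). Its control levels in the 2 genotypes were almost equal. Of the 13633 loci, 7 were listed at 0 in a stressed group, and these 3 genes were among them.

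The genes with the highest control levels are described next. Apart from Ca_03416, they lay outside the most reduced genes of the ranking. Their smaller reduction, in the genotype where each was less reduced, follows from how the ranking was made. Ca_03007 was the most abundant, with 390.1 FPKM in ST-S against 888 FPKM in ST-C (43.9%), and 416 FPKM in SS-S against 691 FPKM in SS-C (60.3%). Its ST roots had the higher level without salt, but under salt ST-S lay slightly under SS-S. Ca_15957 had 249 FPKM in ST-S against 408 FPKM in ST-C (61.1%), and 221 FPKM in SS-S against 421 FPKM in SS-C (52.4%). Ca_08448 had 214 FPKM in ST-S against 508 FPKM in ST-C (42.1%), and 128 FPKM in SS-S against 229.6 FPKM in SS-C (55.8%). These 3 genes held 42.6% of the summed FPKM of the 61 genes in ST-C and 32.3% of it in SS-C.

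Ca_00153 had 166 FPKM in ST-S against 259 FPKM in ST-C (64.3%), and 239 FPKM in SS-S against 405 FPKM in SS-C (59.0%). Its level was lower in ST than in SS, with SS-C at 1.57 times ST-C, as was that of Ca_07897, with SS-C at 1.41 times ST-C. Ca_07897 had 72.6 FPKM in ST-S against 135 FPKM in ST-C (53.9%), and 107 FPKM in SS-S against 190.3 FPKM in SS-C (56.1%). Ca_22549 had 123 FPKM in ST-S against 187 FPKM in ST-C (65.8%), and 82.8 FPKM in SS-S against 152 FPKM in SS-C (54.4%). Ca_06245 had 116 FPKM in ST-S against 193 FPKM in ST-C (60.3%), and 82.7 FPKM in SS-S against 140.3 FPKM in SS-C (58.9%). Ca_03416, given above, was the other of the 8.

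**Figure D3:**
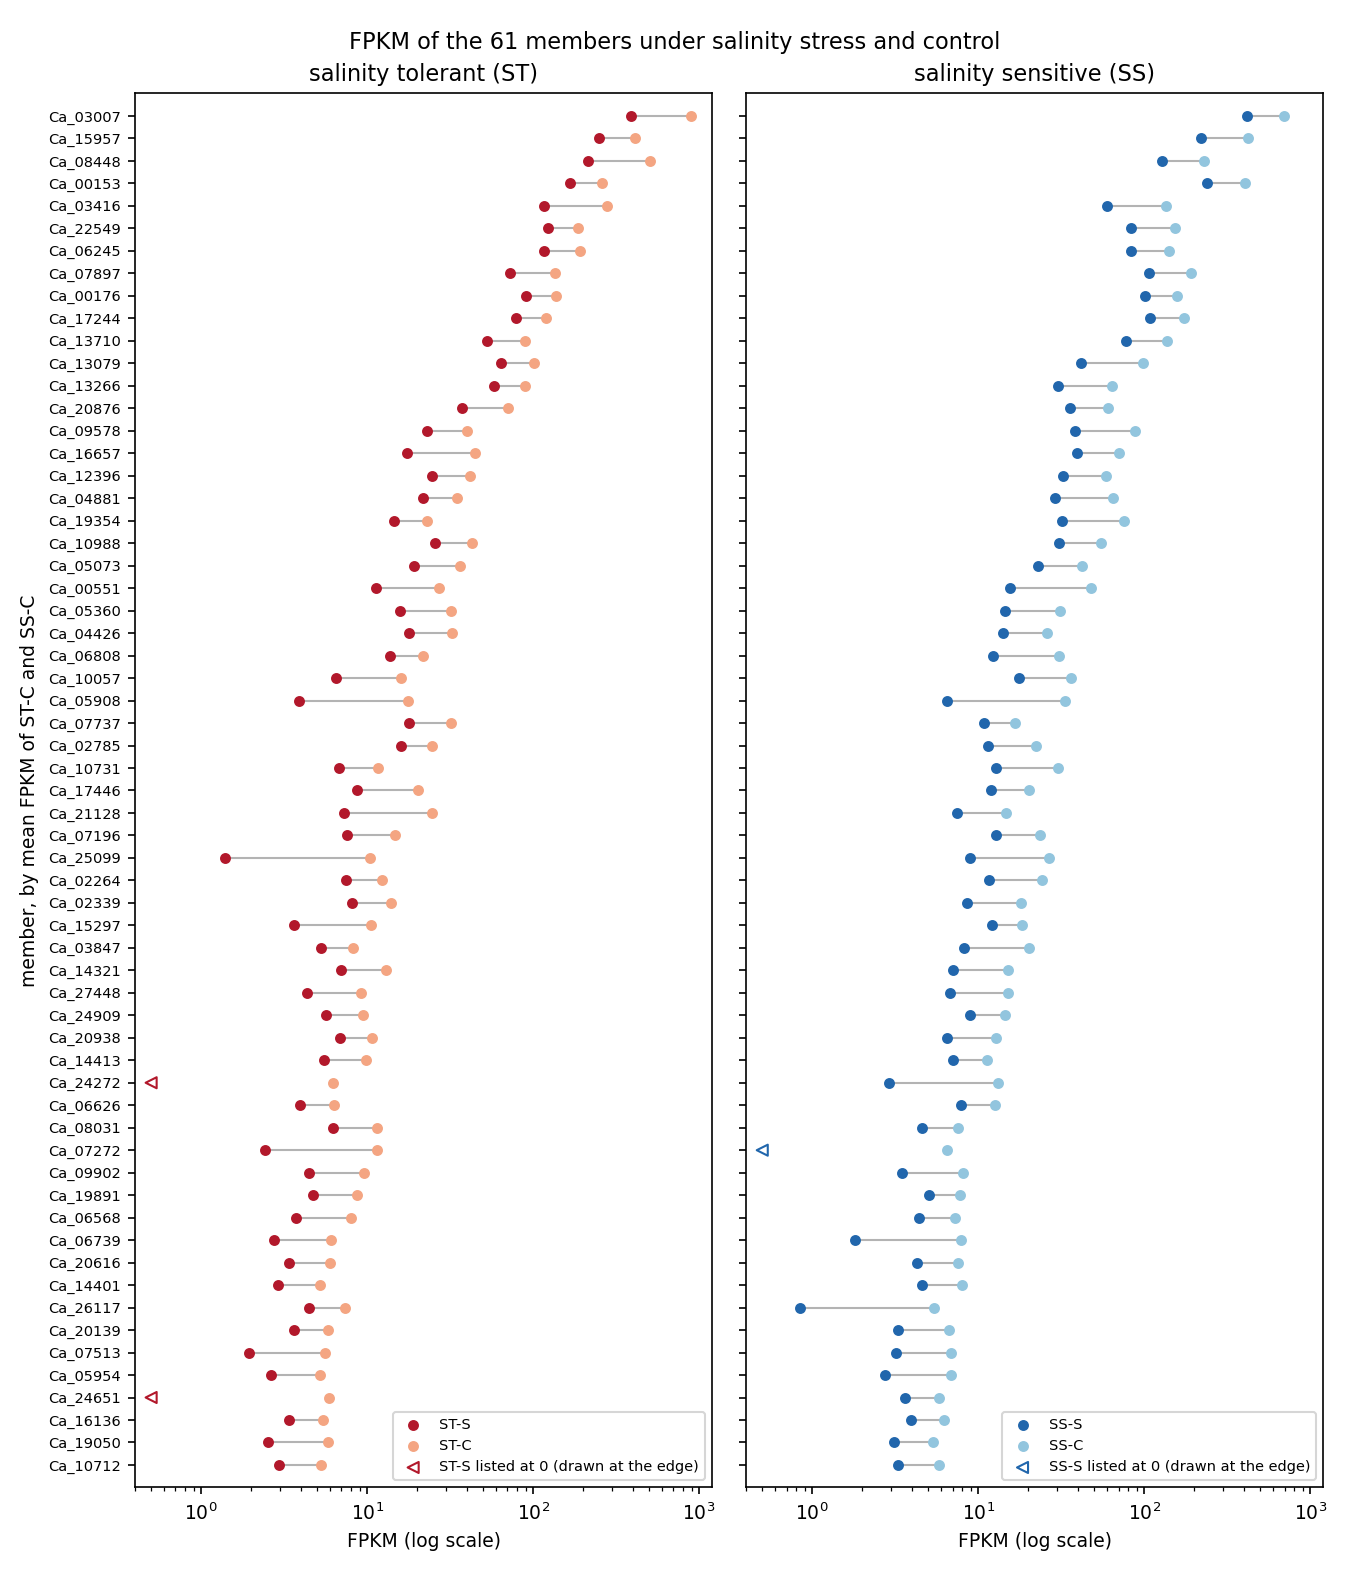
FPKM on a log scale for each of the 61 genes, ordered by the mean of ST-C and SS-C, in ST (left) and SS (right), with a line joining the stressed and the control value and open triangles for a stressed value listed at 0. Control levels span from 5.19 to 888 FPKM, and every stressed point lies to the left of its control point.

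The 61 genes had lower median control levels than the 13633 loci. Their stressed medians, sums and shares of all FPKM are lower still by construction, since the rule required a reduction in both genotypes. Their median was 7.49 FPKM in ST-S against 16.1 FPKM in ST-C, and 11.6 FPKM in SS-S against 23.4 FPKM in SS-C. Over the 13633 loci the medians were 26.6 FPKM in ST-S against 25.4 FPKM in ST-C, and 25.2 FPKM in SS-S against 25.9 FPKM in SS-C. Lower control medians were not particular to the 61 genes. The loci at least 1.5-fold higher under stress in both genotypes had 15.6 FPKM in ST-C and 16.7 FPKM in SS-C. Summed over the 61 genes, FPKM came to 2219 in ST-S against 4234.5 in ST-C, and to 2253 in SS-S against 4155 in SS-C. These sums were 0.160% of all FPKM in ST-S against 0.326% in ST-C, and 0.168% in SS-S against 0.319% in SS-C. The number of the genes under 5 FPKM was 21 in ST-S and 16 in SS-S, while the minimum set for the controls left none there.

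Genes of high level stood at a somewhat higher share of the control than the rest, without an even order over the classes in SS. A control mean of at least 100 FPKM was given for 11 genes, which stood at medians of 60.3% of control in ST and 56.7% in SS, with 41.6% as the lowest share in either genotype. The 20 genes between 20 and 100 FPKM stood at medians of 56.7% in ST and 48.2% in SS, and the lowest share was 19.6%. The 30 genes under 20 FPKM stood at medians of 54.1% in ST and 50.8% in SS, and the genes listed at 0 were all among them. At least 2-fold lower levels in both genotypes were given for 1, 4 and 7 genes of these classes, from the highest level to the lowest. The part of the level, and of the reads behind it, in these differences was not tested.

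The depth of the reduction was similar in ST and SS for many of the genes and unequal for a few. The share of control was lower in ST for 27 of the 61 genes (44.3%) and lower in SS for 34. Among the alternatives run, the share lower in ST passed the even split only under upper-quartile scaling of the groups, at 50.7%. It was 50% at a minimum of 1 FPKM and 35.9% at a minimum of 10. Each of these settings also changed which genes were included. For 28 genes the log2 ratios of the genotypes lay within 0.25 of each other. Among the 58 genes above 0 in all groups they were at least 1.5-fold apart for 7, with the deeper reduction in ST for 3 and in SS for 4. The shares over the 13633 loci were not computed for these counts, so nothing particular to the 61 genes is read from them. Over those loci the median log2 ratio was 0.05 in ST and -0.03 in SS.

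On the log2(FPKM + 1) scale, which allows values at 0 and understates ratios of low genes, the genes reduced most in ST relative to SS were Ca_24651, Ca_24272, Ca_25099 and Ca_15297. Ca_15297 had 3.60 FPKM in ST-S against 10.6 FPKM in ST-C (33.9%), and 12.1 FPKM in SS-S against 18.2 FPKM in SS-C (66.1%). The SS value of Ca_15297 lay just inside the threshold. The genes reduced most in SS relative to ST were Ca_26117, Ca_07272, Ca_06739 and Ca_03847. Ca_26117 had 4.44 FPKM in ST-S against 7.38 FPKM in ST-C (60.1%), and 0.848 FPKM in SS-S against 5.41 FPKM in SS-C (15.7%). Ca_03847 had 5.31 FPKM in ST-S against 8.26 FPKM in ST-C (64.3%), and 8.24 FPKM in SS-S against 20.1 FPKM in SS-C (41.0%). Apart from Ca_25099, Ca_15297 and Ca_03847, these 8 genes had control levels under 14 FPKM in every group.

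The genotypes differed in the control level of many of the genes, a comparison that the rule used only through the minimum of 5 FPKM and through the shared control columns. SS-C was above ST-C for 40 of the 61 genes (65.6%, background 53.4%). ST-C was at least 1.5 times SS-C for 6 of them (9.84%, background 3.71%), and SS-C was at least 1.5 times ST-C for 20 (32.8%, background 4.16%). For the other 35 the controls lay within 1.5-fold. The log2 ratio of ST-C over SS-C had a median of -0.26 and ran from -1.72 to 1.15, with an SD of 0.63 over the genes, against a median of -0.02 and an SD of 0.35 over the 13633 loci. With 1 pooled value per group these differences could not be tested. The median also depended on the rule, since it was -0.55 for genes at least 2-fold lower in both genotypes and -0.050 at a minimum of 1 FPKM.

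The 4 genes highest in SS-C relative to ST-C were Ca_19354, Ca_10731, Ca_25099 and Ca_03847, of which the last 3 are given above. Ca_19354 had 14.5 FPKM in ST-S against 22.9 FPKM in ST-C (63.1%), and 31.9 FPKM in SS-S against 75.5 FPKM in SS-C (42.2%). The log2 ratio of ST over SS for Ca_19354 was -1.14 under stress and -1.72 in the controls. The 4 genes highest in ST-C relative to SS-C were Ca_08448, Ca_03416, Ca_07737 and Ca_07272. Ca_07737 had 17.9 FPKM in ST-S against 31.8 FPKM in ST-C (56.3%), and 10.8 FPKM in SS-S against 16.6 FPKM in SS-C (65.4%). For Ca_08448 the level in ST was 1.67 times that in SS with salt and 2.21 times without, and for Ca_03416 it was 1.93 times with salt and 2.05 times without.

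The order of the genotypes was mostly the same with and without salt. For 50 of the 61 genes (82.0%, background 65.0%) the genotype with the higher control also had the higher stressed level. The log2 control ratios of the 61 genes were spread more widely than those of the 13633 loci (SD 0.63 against 0.35). The part of this spread, and of the rule, in that count was not tested. ST-S was at least 1.5 times SS-S for 8 genes (background 6.68%), and SS-S was at least 1.5 times ST-S for 18 (background 3.29%), with a median log2 ratio of ST-S over SS-S of -0.25 against 0.04 over the 13633 loci. Ca_07272, listed at 0 in SS-S, is in the first of these counts, and Ca_24272 and Ca_24651, listed at 0 in ST-S, are in the second. Of the 20 genes higher in SS-C by at least 1.5-fold, 16 kept that gap under salt, Ca_24272 among them through its 0. The share of control of these 20 genes was lower in ST for 9 and in SS for 11. Of the 6 genes higher in ST-C by at least 1.5-fold, 4 kept the gap, Ca_07272 among them through its 0. The lower share of control was in ST for 5 of the 6. The 35 genes with like controls had the lower share in ST for 13 and in SS for 22. For these splits too, no share over the 13633 loci was computed.

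**Figure D4:**
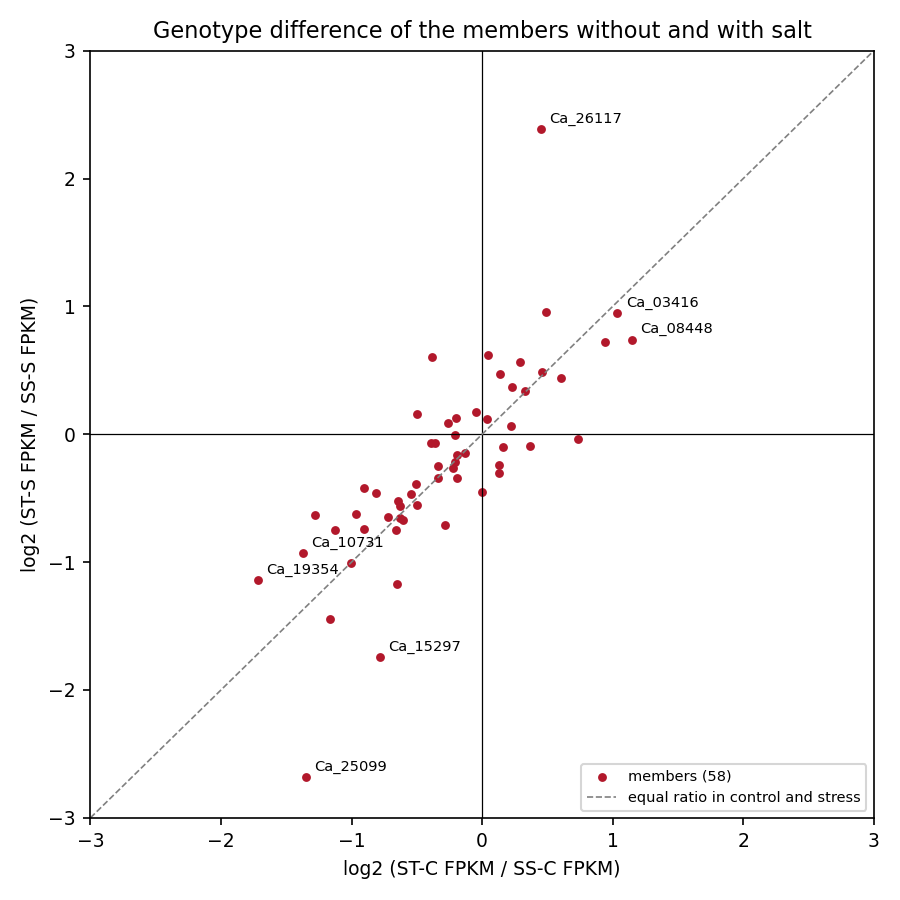
Log2 ratio of ST over SS in the control groups (horizontal) and in the stressed groups (vertical) for the 58 of the 61 genes above 0 in all groups; the dashed line marks an equal ratio in both conditions. Points to the left of 0 are higher in SS-C, as 40 of the 61 genes are, and 28 points lie within 0.25 of the dashed line.

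For 55 of the 61 genes (90.2%) the stressed values of both genotypes lay under the control values of both, an arrangement found for 14.0% of the 13633 loci and favoured by the rule. The control of SS was the highest of the 4 groups for 40 genes and that of ST for 21, and the lowest group was ST-S for 41 genes and SS-S for 20. In the other 6 genes the groups overlapped across genotypes. SS-S lay above ST-C for Ca_10731, Ca_19354, Ca_15297, Ca_10057 and Ca_06626, and ST-S lay above SS-C for Ca_07737. Ca_10057 and Ca_06626 are outside the naming rule and were picked after their values were seen. Ca_10057 had 6.50 FPKM in ST-S against 16.1 FPKM in ST-C, and 17.7 FPKM in SS-S against 36.0 FPKM in SS-C. Ca_06626 had 3.93 FPKM in ST-S against 6.34 FPKM in ST-C, and 7.92 FPKM in SS-S against 12.7 FPKM in SS-C. For these 6 genes the ratio between the controls exceeded the reduction in the genotype with the higher control, as such an overlap requires.

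The genes nearest the fold threshold on the inside were Ca_15297, whose control was 1.51 times the stressed level in SS, and Ca_17244, with 78.6 FPKM in ST-S against 119 FPKM in ST-C and 108 FPKM in SS-S against 174 FPKM in SS-C, whose ST control was 1.52 times the stressed level. Just outside lay Ca_26443, with 7.32 FPKM in ST-S against 11.1 FPKM in ST-C and 6.35 FPKM in SS-S against 9.45 FPKM in SS-C, and Ca_15496, with 12.8 FPKM in ST-S against 26.6 FPKM in ST-C and 11.4 FPKM in SS-S against 17.0 FPKM in SS-C. Both missed the SS condition with a ratio of 1.49. Ca_26443 met the ST condition with 1.51 and Ca_15496 with 2.08.

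Just inside the FPKM minimum lay Ca_14401, with 2.91 FPKM in ST-S against 5.19 FPKM in ST-C and 4.59 FPKM in SS-S against 8.01 FPKM in SS-C, and Ca_05954, with 2.62 FPKM in ST-S against 5.20 FPKM in ST-C and 2.74 FPKM in SS-S against 6.83 FPKM in SS-C. Just outside it lay Ca_25343, with 3.0004 FPKM in ST-S against 4.74 FPKM in ST-C and 5.12 FPKM in SS-S against 8.79 FPKM in SS-C, and Ca_23129, with 2.92 FPKM in ST-S against 4.62 FPKM in ST-C and 2.55 FPKM in SS-S against 4.60 FPKM in SS-C. With controls of 1.58 times the stressed level in ST for both, and of 1.72 and 1.81 times in SS, these loci met the fold condition and missed the minimum alone.

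The 48 loci at least 1.5-fold higher under stress in both genotypes offer a counterpart chosen by the opposite rule. Their medians were 29.5 FPKM in ST-S against 15.6 FPKM in ST-C, and 32.6 FPKM in SS-S against 16.7 FPKM in SS-C. The median log2 ratio of ST-C over SS-C was -0.01 for these loci and -0.26 for the 61 genes. The counts at 1.5-fold leaned toward SS-C in both lists. Of the 48 loci, ST-C was at least 1.5 times SS-C for 3 (6.25%), and SS-C was at least 1.5 times ST-C for 10 (20.8%). Among the 61 genes lower in both, these shares were 9.84% and 32.8%, and whether the lists differ was not tested.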

How the data were processed

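Root RNA was sequenced from JG62 and ICCV2 plants under salinity stress and control conditions, as 49 bp single-end Illumina reads of 8 libraries. Per the labels and the methods of the study, the authors removed adapters and reads under Phred 20, aligned the rest to the Kabuli genome (version 1.0) with TopHat2 2.1.1, assembled loci with Cufflinks 2.2.1 and estimated expression with Cuffdiff, named as version 2.2.1 in the labels and 2.1.1 in the methods. Scaling between libraries is not given in the sources used here. The deposited values are FPKM, 1 pooled value by the authors per locus and group. No SD or interval between libraries, no test and no p-value was therefore computed.

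Ratios are plain FPKM ratios of stress over control and of ST over SS, without a pseudocount unless stated. The 61 genes and the lists of identifiers were chosen with earlier results of these data known. Named genes are those the study names by identifier, the 10 most reduced in the genotype where they were less reduced, the 8 highest in the controls, the 4 with the largest difference between genotypes in each direction, for the reduction and for the controls, those nearest the thresholds, and those listed at 0. This made 29 of the 61. The RefSeq gene table at hand matched 0 identifiers, so no positions, names or sequences are given. Alternatives were a 2-fold threshold, FPKM minimums of 1 and 10, pseudocounts of 0.1 and 1, median-ratio and upper-quartile scaling, and other handling of gene names. The selection rule was tested on simulated reductions, planted alike in both genotypes at loci with at least 10 FPKM in both controls. Lower controls, stressed values of 0 and reductions planted unequally were not covered. The scaling was tested on a shift added to ST-S. Python 3.11.15, pandas 2.3.3, numpy 2.4.6 and matplotlib 3.10.9 were used.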

Additional observations from a re-analysis of the deposited data

How the results depend on the processing

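The number of genes lower in both genotypes, 61, followed the thresholds and became 12 at a 2-fold threshold, 160 at an FPKM minimum of 1 and 39 at a minimum of 10. At the 2-fold threshold the median log2 ratio of stress over control was -1.29 in ST and -1.40 in SS, and the median log2 ratio of ST-C over SS-C was -0.55. At an FPKM minimum of 1 this last median was -0.050. The number of genes at least 2-fold lower in both, 12, became 39 at a minimum of 1, 6 at a minimum of 10, 6 with a pseudocount of 1, and 20 when loci without a gene name were counted too. Median-ratio scaling gave 67 genes, of which 60 were shared with the 61, and upper-quartile scaling gave 71, of which 58 were shared. These scalings moved the median of all loci by at most 0.06 on the log2 scale. Leaving out the 3 genes listed at 0, an alternative chosen after seeing the data, left 58 genes and moved each median of a log2 ratio by less than 0.1. The share of genes with the deeper reduction in ST, 44.3%, passed the even split under upper-quartile scaling (50.7%), reached it at an FPKM minimum of 1 (50%), and was 35.9% at a minimum of 10 and 36.5% with a pseudocount of 1. No median log2 ratio of the selected genes changed its sign under the alternatives run. The small stress to control medians over all named loci at the FPKM minimum did change sign under upper-quartile scaling. They went from 0.0483 to -0.0077 in ST and from -0.0257 to 0.0025 in SS. No paired analysis was possible because the columns carry 1 pooled value per group and no replicate numbers, and leaving out single libraries was not run for the same reason. Depth is unknown, so the precision of low FPKM could not be given.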

Other observations

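Another 30 loci without a gene identifier met the same fold and FPKM conditions. They stood at medians of 48.1% of control in ST and 53.1% in SS, and 1 of them was listed at 0 in a stressed group.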
